A study of Rattus norvegicus with 18 samples.

Results

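The 9 genes described here, called thin filament genes below, encode troponins and tropomyosins: Tnni1, Tnni3, Tnnt1, Tnnt2, Tnnc1, Tpm1, Tpm2, Tpm3 and Tpm4. They were chosen by gene symbol from a table of 19880 genes, and all 9 were found in it and passed the filter on low counts that left 14870 genes to be tested. The cells were ventricular cardiomyocytes of neonatal Sprague-Dawley rats, primary heart muscle cells taken on postnatal day 2, and other cells had been reduced by 1 h of plating before RNA sequencing. All groups received phenylephrine (PE), an alpha-1 adrenergic agonist that makes cardiomyocytes grow, at 20 µM for 24 h. The 6 groups of 3 libraries were cells infected with ad-sORF6, ad-sORF7 or ad-sORF8, adenoviruses each carrying a short open reading frame (sORF), and cells infected with the control virus of each. No cells without virus or without PE are among these libraries, and the labels do not name the peptides, the number of animals or whether replicates were separate cultures, so p-values measure only the spread between libraries, which may be technical.

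Contraction of striated muscle is switched on when calcium binds troponin C, which releases the inhibition by troponin I and lets tropomyosin, to which troponin T anchors the complex, move on actin. The heart before birth contains the slow skeletal troponin I encoded by Tnni1, and the cardiac troponin I encoded by Tnni3 replaces it around and after birth. Tnnt2 encodes cardiac troponin T, Tnnt1 the troponin T of slow skeletal fibres, and Tnnc1 the troponin C shared by heart and slow skeletal muscle. Tpm1 encodes the main tropomyosin of the rodent heart, Tpm2 the beta tropomyosin of skeletal and developing muscle, and Tpm3 and Tpm4 supply, among others, cytoskeletal tropomyosins of non-muscle cells.

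In the Rnor_6.0 coordinates of the table, Tnni3 lies on chromosome 1 from 72882806 to 72886490 and Tnnt1 follows on the same strand 2779 bases further, from 72889270 to 72899629. Tnni1 lies on chromosome 13 from 52624842 to 52637304 and Tnnt2 25606 bases beyond it, from 52662911 to 52681059. Tnnc1 lies on chromosome 16 from 7290789 to 7295238 and Tpm1 on chromosome 8 from 72814737 to 72841496. Tpm2 lies on chromosome 5 from 59016561 to 59025976, Tpm3 on chromosome 2 from 189423534 to 189451340, and Tpm4 on chromosome 16 from 19379386 to 19409574. Each value is the sum over all transcripts of a gene, so the alternatively spliced muscle and non-muscle forms of the tropomyosin genes are not separated.

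The 120 bases before the annotated starts of Tnni1, Tnni3, Tnnt2 and Tpm1 are shown. They are from RefSeq on the GRCr8 build, read 5′ to 3′ on the strand of the gene, with matches to the GATA motif GATAA and the MCAT motif CATTCC, on either strand, in capitals. Tnnt2 has a second annotated start, at which no GATA, MCAT or TATA motif was matched, and the first is shown.
Tnni1, chr13:49781409-49781528, plus strand: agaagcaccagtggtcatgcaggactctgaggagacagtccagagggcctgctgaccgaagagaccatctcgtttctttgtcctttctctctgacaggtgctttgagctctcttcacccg
Tnni3, chr1:78342451-78342570, plus strand: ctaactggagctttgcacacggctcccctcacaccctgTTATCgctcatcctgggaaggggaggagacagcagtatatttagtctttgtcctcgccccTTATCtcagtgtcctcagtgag
Tnnt2, chr13:49819003-49819122, plus strand: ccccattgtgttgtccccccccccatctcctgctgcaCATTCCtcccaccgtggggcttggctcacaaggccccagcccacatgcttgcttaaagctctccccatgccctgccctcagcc
Tpm1, chr8:76543416-76543535, minus strand: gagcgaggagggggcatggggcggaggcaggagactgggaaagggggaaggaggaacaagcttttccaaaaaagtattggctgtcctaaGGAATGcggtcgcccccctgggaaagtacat
The search covered 250 bases before the start in 11 windows of 8 of the 9 genes (Tnnc1 was not in the promoter table used). Tnni3 held 2 GATAA matches, and Tnnt2 and Tpm3 held 1 each; 23.5% of 33469 rat windows of this length hold at least 1. CATTCC was matched once each in Tnnt2 and Tpm1 against 12.1% of windows, and the TATA motif TATAAA once, in Tnnt1, against 12.9%. The Tnni1 window held none of these but 2 matches to the E box CANNTG, which 65.5% of windows hold. The CArG box and the MEF2 motif, in 1.5% and 2.96% of windows, had no match in the 11 windows. No match to a GATA, MCAT or TATA motif in these genes overlapped another match or an E box. These matches describe letters, not bound sites.

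The libraries held 15697177 to 17658137 estimated counts. Depth differed by experiment, with 15697177 to 15866402 in the sORF8 controls, 16186110 to 16283938 with sORF8 and 17299568 or more in all other libraries. Markers of cardiomyocytes were abundant in every library, with 14660 to 26850 CPM (counts scaled to library size) summed over 7 genes without Tnnt2. Fibroblast markers followed with 7485 to 9185 CPM over 8 genes, and smooth muscle and pericyte markers with 2522 to 3414 CPM over 7 genes. Endothelial markers summed to 46.6 to 62.8 CPM and leukocyte markers to 75.6 to 124.5 CPM. Skeletal muscle markers summed to 115.3 to 328.6 CPM over 7 genes, nearly all of it from the creatine kinase gene Ckm (113.9 to 326.8 CPM), which heart muscle also expresses, while Myod1 and Pax7 stayed at or below 0.125 and 0.0579 CPM. The control replicate 2 of sORF6 and the control replicate 1 of sORF7 stood apart from the other libraries of their groups, with 12.8 to 13.1 and 7.18 to 8.13 as the chi-square per gene against these, where all other pairs within a group had 2.75 to 4.37. Where a call of the 9 genes turns on them, the count without them is given.

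Per length of transcript, the thin filament genes kept 1 order in all 18 libraries. Tpm1 had a mean level of 4748 ± 830 FPKM (fragments per kilobase of transcript, scaled to library depth; SD, n = 18) and ranked 3 of 19880 genes. Tnnt2 came next with 3849 ± 419 FPKM, then Tnnc1 with 2588 ± 284 FPKM. Within a library Tpm1 was 1.06 to 1.36 times Tnnt2, but over libraries their ranges overlapped, at 3468 to 5631 FPKM and 3227 to 4430 FPKM. The other neighbours in the order had ranges that did not overlap. Both troponin I genes were lower, at 1112 ± 178 FPKM for Tnni3 and 677 ± 131 FPKM for Tnni1, and Tnni3 exceeded Tnni1 by 1.5 to 1.91 times. Tpm4 had 384 FPKM, Tpm2 299 FPKM and Tpm3 144 FPKM. Tnnt1 was far below with 5.98 ± 1.24 FPKM, near the fast skeletal genes Tnnt3 (3.65 FPKM), Tnni2 (3.33 FPKM) and Tnnc2 (1.27 FPKM). Relative to its mean, Tpm3 had the narrowest range of the 9, from 131.5 to 152.3 FPKM over all libraries.

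**Figure D1:**
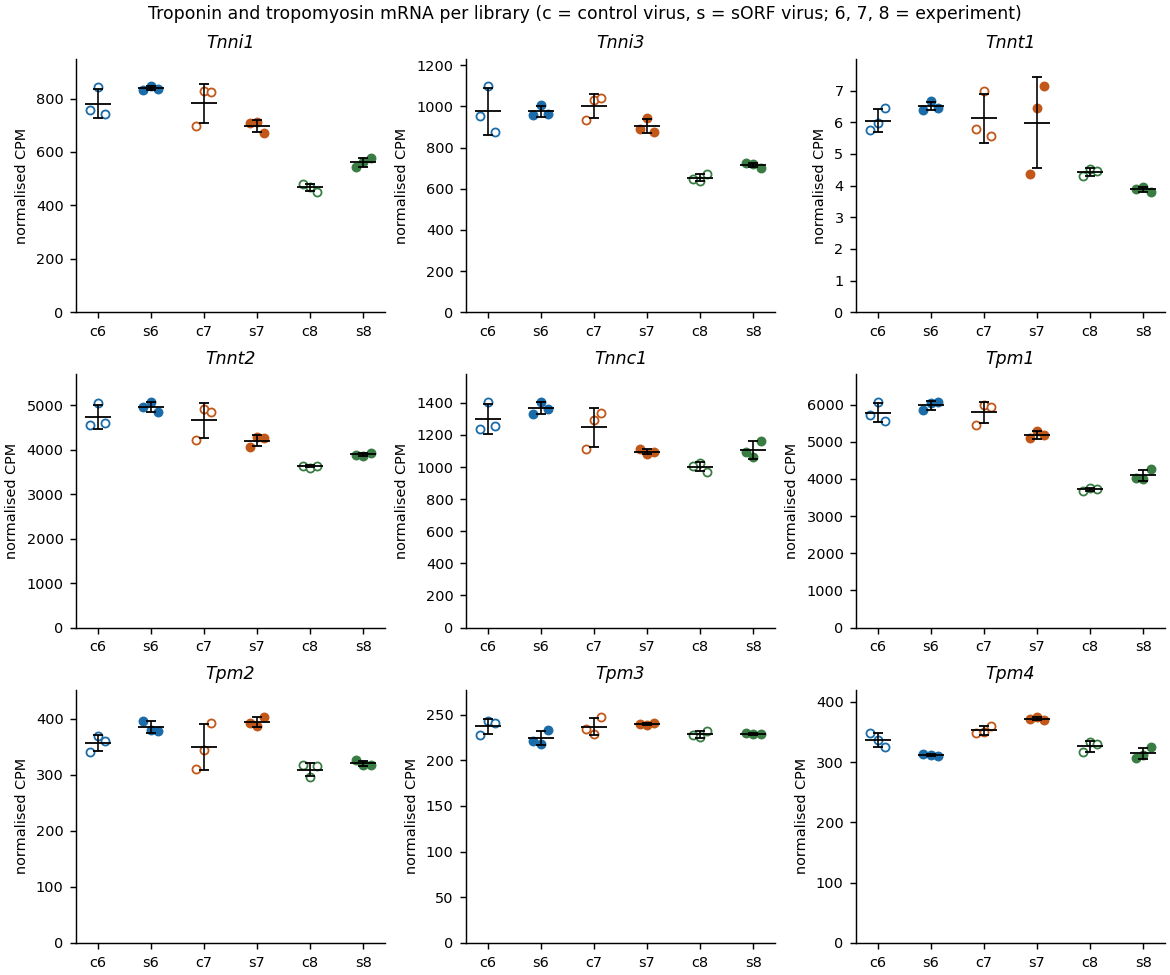
Normalised CPM of the 9 genes in each of the 18 libraries, on linear axes from 0; open points are control virus and filled points sORF virus libraries, and bars give the mean and SD of 3 libraries. Tnni1, Tnni3 and Tpm1 sit lowest in the sORF8 control libraries, while Tpm3 lies at a similar height in all 6 groups.

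The ratio of Tnni1 to Tnni3 sets the fetal against the adult troponin I transcript within a library and does not depend on how libraries are scaled. In FPKM it was 0.66, 0.65 and 0.66 in the sORF6 libraries and 0.61, 0.60 and 0.65 in their controls. The means were 0.658 ± 0.010 and 0.620 ± 0.027 (SD, n = 3), and the groups overlapped in the control replicate 3. The log2 difference was 0.09 (two-sided exact permutation test, p = 0.20), and 0.06 without the control replicate 2 (exact p = 0.30). In the sORF7 experiment the ratio was 0.62, 0.58 and 0.60 with the sORF and 0.58, 0.62 and 0.61 in the controls. These values interleave, and the log2 difference was -0.01 (exact permutation p = 0.80), and -0.04 without the control replicate 1 (exact p = 0.40). In the sORF8 experiment it was 0.58, 0.61 and 0.63 with the sORF and 0.57, 0.56 and 0.52 in the controls. All 3 sORF8 libraries lay above their controls, by a log2 difference of 0.13, with an exact permutation p of 0.10, the smallest that 3 against 3 libraries allow. Adjusted over the 3 experiments, these p-values were 0.30, 0.80 and 0.30, so none passed 0.05. Between experiments the sORF8 controls had the lowest ratio, 0.551 ± 0.024 (SD, n = 3), below all 6 libraries of the other controls, which ran from 0.58 to 0.65.

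**Figure D2:**
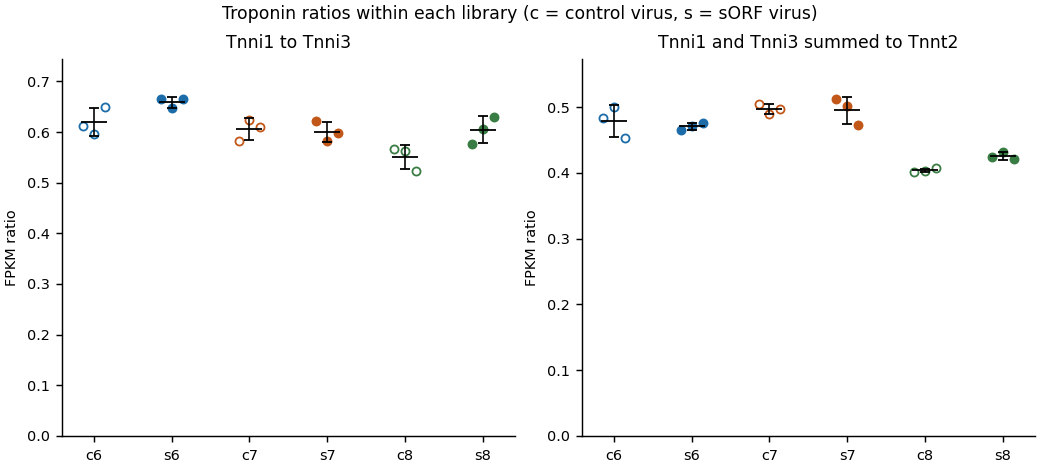
FPKM ratio of Tnni1 to Tnni3 (left) and of summed troponin I to Tnnt2 (right) per library, with mean and SD of 3; open points are control virus libraries. The Tnni1 to Tnni3 ratio ranges from 0.52 to 0.66, and in the sORF8 experiment alone the sORF and control libraries do not overlap in either ratio.

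Ratios to Tnnt2 set the other subunits against troponin T. Summed Tnni1 and Tnni3 stood at 0.471 ± 0.006 of Tnnt2 in FPKM with sORF6, 0.495 ± 0.020 with sORF7 and 0.426 ± 0.006 with sORF8. Their controls had 0.479 ± 0.024, 0.498 ± 0.007 and 0.404 ± 0.003 (SD, n = 3 in each). Tnnc1 to Tnnt2 ran from 0.62 to 0.73 over the 18 libraries, and sORF and control libraries overlapped in every experiment. Tnnt1 was 0.0012 to 0.0020 of Tnnt2, with overlap in the sORF6 and sORF7 experiments. With sORF8 it lay wholly below the controls, by a log2 difference of -0.29. The exact permutation p was 0.10, or 0.30 adjusted over the 3 experiments. Tnnt1 had only 62 to 73 counts in each of these libraries.

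With sORF6, no thin filament gene passed the test. In edgeR's quasi-likelihood test with Benjamini-Hochberg adjustment over the 14870 genes, 0 of 9 were called at an adjusted p under 0.05, where 3.85% of all genes were called in either direction. DESeq2 also called 0 of the 9. At an unadjusted p under 0.05 there were 2, Tpm3 and Tpm4, both lower, against 15.2% of all genes. The median log2 fold change of the 9 genes was 0.07, beside 0.00 for all genes.

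Tpm4 gave the smallest p. Its normalised CPM were 314, 311 and 311 with sORF6 and 349, 336 and 326 in the controls, without overlap. The log2 fold change was -0.11 ± 0.03 (SE), with an adjusted p of 0.072. Tpm2 was the other gene without overlap, at 397, 381 and 378 CPM above 341, 370 and 360 (log2 fold change 0.11 ± 0.06, adjusted p = 0.39). Among all genes, 20.6% had no overlap between these groups. Tnni1 had 832, 846 and 836 CPM with sORF6 and 757, 842 and 742 CPM in the controls, a log2 fold change of 0.10 ± 0.06 with an adjusted p of 0.40. The control at 842 is replicate 2, which stood apart. Tnni3 had a log2 fold change of 0.00 with a 95% interval of -0.12 to 0.12. Tnnt2, Tnnc1 and Tpm1 had log2 fold changes of 0.07, 0.08 and 0.05, with adjusted p of 0.54 to 0.59. Without both of the libraries that stood apart, Tnnt2, Tnni1 and Tnnc1 were called higher, and with a correction for transcript length Tpm1, Tnni1 and Tnnc1 were. Over all genes, 623 and 688 were called in these fits, beside 572 in the main fit. Tpm4 was called lower without the control replicate 3 (adjusted p = 0.040). Over these groups, 2 of 5 leukocyte markers, Adgre1 and Itgam, were called lower, with summed levels of 75.6 to 86.3 CPM beside 101.1 to 116.9 CPM in the controls. Adgre1 made up most of these sums, at 44.9 to 51.5 CPM beside 68.4 to 80.4 CPM. Without a call, Ptprc lay below and Csf1r above its controls, and Cd68 overlapped. Fibroblast markers, 1 of 8 called higher and 1 lower, summed to 8674 to 9185 CPM beside 7719 to 8509 CPM. Cardiomyocyte markers, also 1 of 8 called higher and 1 lower, summed to 25090 to 26850 CPM beside 22660 to 26290 CPM. Of 7 smooth muscle and pericyte markers Acta2 was called lower, with sums of 2867 to 2989 CPM beside 3047 to 3104 CPM. Acta2 alone had 1366 to 1514 CPM beside 1567 to 1657 CPM, while Myh11, not called, lay above its controls. Their part in these values was not tested. In bulk RNA, fewer cells of a type and less RNA per cell cannot be told apart.

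With sORF7, Tpm1 fell and the cardiac troponin genes had lower values that missed the threshold. Tpm1 had 5088, 5291 and 5178 normalised CPM with sORF7 and 5462, 5989 and 5921 CPM in the controls, so every sORF7 library was below every control. It fell by 0.16 ± 0.04 on the log2 scale (adjusted p = 0.0126), which is 10.4% less. It was the 1 of 9 genes called lower, against 3.66% of all genes, and 0 of 9 were called higher, against 4.12%. The call was lost without the sORF7 replicate 1, without the control replicate 2 or without the control replicate 3, and with limma on log2(FPKM + 1), with adjusted p up to 0.124.

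Tnnc1 had 1115, 1082 and 1093 CPM with sORF7 and 1111, 1294 and 1337 CPM in the controls. Its log2 fold change was -0.19 ± 0.06 (adjusted p = 0.0570), and the overlap was with the control replicate 1, which stood apart. Tnnt2 showed the same layout at 4064, 4274 and 4270 CPM beside 4212, 4909 and 4840 (-0.15 ± 0.05, adjusted p = 0.0622). Tnni1 had 710, 713 and 673 CPM beside 698, 827 and 823 (-0.16 ± 0.06, adjusted p = 0.0838). Tnni3 had 892, 944 and 878 CPM beside 934, 1029 and 1039 (-0.15 ± 0.06, adjusted p = 0.164). In each of these 4 genes the control replicate 1 was the lowest control, and without it Tnnt2, Tnnc1 and Tnni1 were called lower together with Tpm1. Over all genes, 837 were called without that library, beside 1156 in the main fit.

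The tropomyosins Tpm2 and Tpm4 had values in the other direction. Tpm2 had 393, 388 and 404 CPM with sORF7 and 311, 345 and 393 CPM in the controls (0.17 ± 0.06, adjusted p = 0.0768). Tpm4 had 371, 375 and 371 CPM, all above the controls at 348, 350 and 361 (0.08 ± 0.03, adjusted p = 0.187). Tpm1 and Tpm4 were the 2 genes without overlap, where 23.1% of all genes had none. At an unadjusted p under 0.05 there were 7 of 9, against 20.0% of all genes: Tnni1, Tnni3, Tnnt2, Tnnc1 and Tpm1 lower, and Tpm2 and Tpm4 higher. Tpm3 (0.02 ± 0.04) and Tnnt1 (-0.03 ± 0.15) completed the list, with a median of -0.14 over the 9 beside 0.00 for all genes. With the length correction 6 genes were called, the 5 lower ones and Tpm2, and with DESeq2 4: Tpm1, Tnnt2, Tnnc1 and Tpm2. Over all genes, 1439 were called with the length correction and 1090 with DESeq2, beside 1156 in the main fit. Without the control replicate 3, Tpm2 was called higher. Of 8 cardiomyocyte markers 3 were called lower, with 20030 to 21420 CPM over 7 genes beside 21840 to 22690 CPM in the controls. Myh6, not called, lay above its controls, at 7247 to 7902 CPM beside 6069 to 7042 CPM, and Ryr2 and Ttn overlapped. Of 8 fibroblast markers also 3 were called lower, with 7485 to 7834 CPM beside 7867 to 8770 CPM. The leukocyte marker Csf1r was called lower, with sums of 83.9 to 87.2 CPM beside 86.9 to 95.3 CPM, and smooth muscle and pericyte markers, none called, summed to 3231 to 3414 CPM beside 3021 to 3281 CPM. Their part was not tested.

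With sORF8, Tnni1 and Tpm1 rose. Tnni1 had 543, 563 and 578 normalised CPM with sORF8 and 480, 470 and 452 CPM in the controls, a rise of 20.2% (log2 fold change 0.27 ± 0.06, adjusted p = 0.0103). All sORF8 libraries exceeded all controls. Tpm1 had 4028, 4004 and 4263 CPM against 3685, 3754 and 3723, a rise of 10.1% (0.14 ± 0.04, adjusted p = 0.0463). Called higher were thus 2 of 9 genes, against 2.03% of all genes, and called lower 0 of 9, against 1.72%. Even with sORF8, both genes lay below every control library of the other experiments. Those controls had 698 to 842 CPM for Tnni1 and 5462 to 6080 CPM for Tpm1. Tnni1 lost its call when the control replicate 3 was left out (adjusted p = 0.0649), and Tpm1 when any 1 of the 6 libraries was, or with limma (adjusted p up to 0.238).

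Tnni3 had 725, 719 and 703 CPM with sORF8 and 646, 639 and 672 CPM in the controls (0.13 ± 0.06, adjusted p = 0.263). Tnnt2 had 3884, 3856 and 3927 CPM beside 3636, 3594 and 3629 (0.10 ± 0.05, adjusted p = 0.266). Tnnc1 had 1093, 1060 and 1165 CPM beside 1008, 1025 and 971 (0.14 ± 0.06, adjusted p = 0.208). None of these 3 genes overlapped between groups, yet none passed the adjusted threshold. In all, 6 genes lay wholly above their controls (also Tpm2, at 0.05 ± 0.06) and Tnnt1 wholly below (-0.19 ± 0.16), against 24.5% of all genes without overlap. At an unadjusted p under 0.05 there were 5, all higher, against 16.6% of all genes. Tpm3 (0.00 ± 0.04) and Tpm4 (-0.05 ± 0.03) overlapped, and the median over the 9 was 0.10 beside 0.00. With the length correction, with only the 6 libraries of the experiment in the fit, or without both libraries that stood apart, 5 genes were called: Tnni1, Tpm1, Tnni3, Tnnt2 and Tnnc1. Over all genes, 930, 815 and 963 were called in these fits, beside 558 in the main fit. Of 8 cardiomyocyte markers 4 were called higher, with 19280 to 20790 CPM over 7 genes beside 14660 to 15160 CPM in the controls. Fibroblast markers, none called, summed to 7702 to 8098 CPM beside 7652 to 7819 CPM. Of the smooth muscle and pericyte markers Acta2 was called higher, with sums of 2665 to 2817 CPM beside 2522 to 2594 CPM. Acta2 alone had 1274 to 1346 CPM beside 1114 to 1163 CPM, while Myh11 and Tagln overlapped and Cspg4 lay below its controls. Endothelial markers, none called, summed to 57.9 to 62.8 CPM beside 51.7 to 55.3 CPM. Kdr alone had 42.6 to 45.4 CPM beside 37.3 to 38.5 CPM, while Tek, Cdh5, Tie1, Pecam1 and Vwf overlapped. Their part was not tested.

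**Figure D3:**
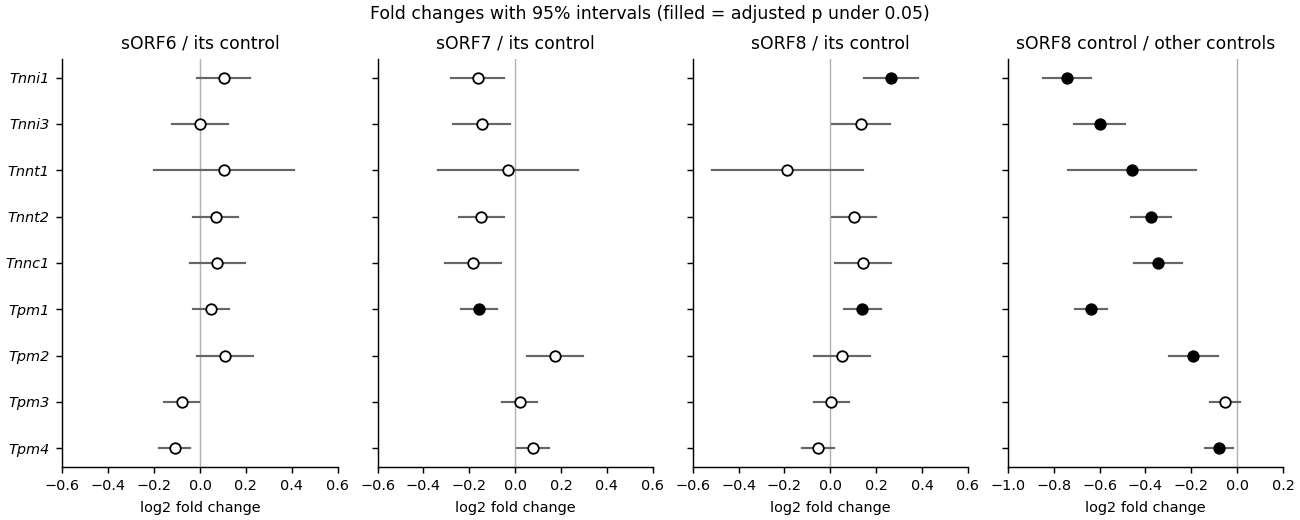
Log2 fold changes of the 9 genes with 95% intervals from the edgeR fit, for each sORF against its control and for the sORF8 controls against the other controls (own axis range); filled points have an adjusted p under 0.05. Filled are Tpm1 with sORF7, Tnni1 and Tpm1 with sORF8, and 8 of 9 genes in the comparison of controls.

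The effects themselves were compared between experiments, each measured against its own controls. Each sORF was used in 1 experiment only, so a difference between sORFs cannot be told apart from one between experiments or cultures. The effect of sORF7 was below that of sORF8 in 5 of 9 genes (Tnni1, Tnni3, Tnnt2, Tnnc1 and Tpm1), where 3.92% of all genes were called in that direction. For Tnni1 the log2 difference was -0.43 ± 0.08 (adjusted p = 0.00201) and for Tpm1 -0.30 ± 0.05 (adjusted p = 0.00158), and both were called in all 20 alternative fits. The calls of Tnnc1, Tnnt2 and Tnni3 were kept in 17, 13 and 9 of them, and the count of 5 was 3 with limma and 2 to 5 with 1 library left out. Between sORF6 and sORF7, 5 of 9 genes differed, against 11.2% of all genes. Tnni1, Tnnt2, Tnnc1 and Tpm1 had the higher effect with sORF6, and Tpm4 the lower one. The calls of Tnni1, Tnnt2 and Tnnc1 were kept in 10, 9 and 8 of 20 alternative fits, and those of Tpm1 and Tpm4 in 19 and 18. The count of 5 was 1 with limma, 2 to 6 with 1 library left out and 6 without both libraries that stood apart. Between sORF6 and sORF8, 0 of 9 genes differed by edgeR or by DESeq2, against 3.69% of all genes, and 0 had an unadjusted p under 0.05, against 14.7%. Those 9 log2 differences ran from -0.16 for Tnni1 (95% interval -0.33 to 0.00) to 0.29 for Tnnt1 (-0.16 to 0.74).

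The share of each tropomyosin gene in their summed FPKM does not depend on how libraries are scaled. Tpm1 made up 87.2 ± 0.4% with sORF6 and 86.7 ± 0.3% in its controls, 84.2 ± 0.3% with sORF7 beside 86.5 ± 0.5%, and 83.1 ± 0.4% with sORF8 beside 81.7 ± 0.2% (SD, n = 3). Tpm4 made up 5.55 ± 0.13% with sORF6 beside 6.15 ± 0.26%, 7.41 ± 0.09% with sORF7 beside 6.43 ± 0.27%, and 7.88 ± 0.12% with sORF8 beside 8.83 ± 0.15%. The Tpm4 share did not overlap between sORF and control in any experiment, and was the lower one with sORF6 and sORF8 and the higher one with sORF7. Tpm2 made up 5.80 ± 0.19% with sORF7 beside 4.71 ± 0.38%, also without overlap, while its shares overlapped in the other experiments. The Tpm3 share, 2.07% to 3.33% over all libraries, did not overlap in any experiment either, with 2.16% beside 2.37% for sORF6, 2.58% beside 2.35% for sORF7 and 3.09% beside 3.30% for sORF8. Because Tpm1 made up most of the sum, the other shares also move when Tpm1 does. In normalised CPM, Tpm3 overlapped its controls in every experiment (log2 fold changes -0.08, 0.02 and 0.00), and Tpm4 overlapped them with sORF8. By level, 20.6%, 23.1% and 24.5% of all genes had no overlap with sORF6, sORF7 and sORF8. The Tpm1 share did not overlap with sORF7 or sORF8, and with sORF6 it overlapped in the control replicate 2, at 86.95%, which stood apart. In that library the Tpm4 share was 5.90%, and in the control replicate 1 of sORF7 it was 6.73%, in both cases the control nearest to the sORF libraries. With 3 libraries a side, an exact permutation test of such shares cannot go below p = 0.10.

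**Figure D4:**
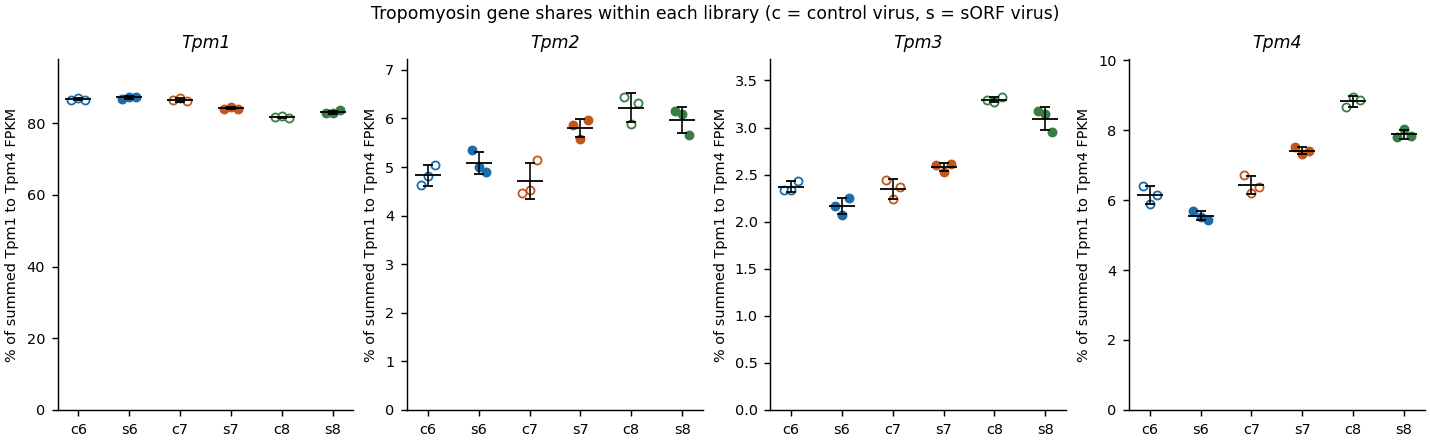
Percent of the summed Tpm1 to Tpm4 FPKM taken by each gene in each library, with mean and SD of 3 and an axis from 0 in each panel; open points are control virus libraries. The Tpm4 share is lowest with sORF6, near 5.5%, and highest in the sORF8 controls, near 8.8%.

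The control groups were not alike, and the sORF8 controls had the lowest depth. Against the mean of the other 2 control groups, the sORF8 controls had lower levels of 8 of 9 thin filament genes, all but Tpm3, where 21.3% of all genes were called lower. Tnni1 was lower by the most: it fell by 0.74 ± 0.05 on the log2 scale (adjusted p = 8.8e-10), from 698 to 842 CPM in the other controls to 452 to 480 CPM. Tpm1 followed with -0.64 ± 0.03 (adjusted p = 3.1e-11), Tnni3 with -0.60 ± 0.05, Tnnt1 with -0.46 ± 0.13, Tnnt2 with -0.37 ± 0.04 and Tnnc1 with -0.35 ± 0.05. These 6 genes lay wholly below all 6 other controls, as did 18.3% of all genes. Tpm2 (-0.19 ± 0.05) and Tpm4 (-0.08 ± 0.03) overlapped, and the call of Tpm4 was lost in 8 of 15 alternative fits, among them those without the control replicate 1 of sORF6, 1 or 3 of sORF7, or 1 or 3 of sORF8. All 8 cardiomyocyte markers, Tnnt2 among them, were called lower too, with 14660 to 15160 CPM over the other 7 beside 21840 to 26290 CPM in the other controls. Of 8 fibroblast markers 3 were called lower, with 7652 to 7819 CPM beside 7719 to 8770 CPM, and of 7 smooth muscle and pericyte markers 4, with 2522 to 2594 CPM beside 3021 to 3281 CPM. Among these 4, Acta2 alone had 1114 to 1163 CPM beside 1567 to 1746 CPM. The pericyte marker Cspg4 and the endothelial marker Kdr were called higher (log2 fold changes 0.20 and 0.21), as were 21.5% of all genes. Of 3 fast skeletal troponins, Tnni2 and Tnnc2 were called lower. The parts of cell composition and depth in the thin filament differences were not tested, and the control virus cannot be told apart from the culture it was grown in. Between the sORF7 and sORF6 controls, 0 of 9 genes differed by edgeR or by DESeq2 (0.00672% of all genes were called) and 0 had an unadjusted p under 0.05 (8.39% of all genes). These log2 differences ran from -0.06 to 0.07, and without both libraries that stood apart Tnni1 and Tnni3 were called higher in the sORF7 controls.

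Partners of these genes in the sarcomere were read from lists. Of 14 thin filament partners (actins, capping proteins, nebulin-like and Z-disc proteins), 1 was called higher with sORF6, Lmod2, a leiomodin that promotes actin filament elongation (0.14 ± 0.04, adjusted p = 0.034), against 0.968% of all genes. With sORF7, 3 were called lower, against 3.66%: Csrp3, a Z-disc LIM protein (-0.30 ± 0.05, adjusted p = 8.2e-04), the skeletal alpha actin gene Acta1 (-0.28 ± 0.05, adjusted p = 0.0021) and Tmod1. With sORF8, 3 were called higher, against 2.03%: Tmod1, which caps pointed ends of actin filaments (0.33 ± 0.04, adjusted p = 8.8e-05), Csrp3 (0.21 ± 0.05, adjusted p = 0.0293) and the cardiac actin gene Actc1. The calls of Lmod2 with sORF6 and of Csrp3 with sORF8 were each lost in 7 of 15 alternative fits, for Csrp3 without any 1 of the 6 libraries and for Lmod2 without any but the control replicate 2. Median log2 fold changes of the list were 0.02, -0.07 and 0.13 for sORF6, sORF7 and sORF8.

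Of 10 thick filament and titin genes, 4 were called higher and 1 lower with sORF6, where 0.968% and 2.88% of all genes were. Myom2, an M-band protein, had 0.35 ± 0.07 (adjusted p = 0.0026), and Myh6, the alpha myosin heavy chain, -0.32 ± 0.07 (adjusted p = 0.0117), a call lost without the sORF6 replicate 3 or the control replicate 1. With sORF7, 6 were called lower, against 3.66% of all genes, among them Myom1 (-0.31 ± 0.04, adjusted p = 2.1e-05) and Myh7, the beta myosin heavy chain (-0.46 ± 0.06, adjusted p = 8.9e-05). With sORF8, 8 were called higher, against 2.03%, among them Myh6 (0.80 ± 0.07, adjusted p = 2.2e-06) and Myom1 (0.36 ± 0.04, adjusted p = 7.6e-06). The list medians were 0.13, -0.24 and 0.35, beside 0.07, -0.14 and 0.10 for the troponins and tropomyosins and 0.00 for all genes in each experiment.

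Of 12 cardiac transcription factors, 1 was called lower with sORF6, against 2.88% of all genes. It was Hand2 (-0.25 ± 0.06, adjusted p = 0.0265), a call lost in 8 of 15 alternative fits, among them those without the sORF6 replicate 1 or 3 or the control replicate 1 or 2. With sORF7, 3 were called lower, against 3.66%: Gata4 (-0.31 ± 0.03, adjusted p = 1.5e-05), Tbx20 (-0.32 ± 0.06, adjusted p = 0.0026) and Mef2a. With sORF8, 1 was called higher, against 2.03%, Tbx20 (0.28 ± 0.06, adjusted p = 0.0168), a call lost without the sORF8 replicate 2 or the control replicate 3. Gata4 and Tbx20 encode regulators of heart muscle genes, and their part in troponin and tropomyosin levels was not tested. The list medians were 0.04, -0.06 and 0.02.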

How the data were processed

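All 18 libraries, grouped by their titles, entered the analysis. The authors deposited estimated counts per gene, and FPKM values made from the same counts. The submitters' processing notes name HISAT2 2.0.4, RSEM 1.2.12 and DESeq2 1.4.5 and the build Rnor_6.0, without roles. Use of strand in counting is not stated. RSEM divides reads among similar transcripts, which could shift reads between tropomyosin genes. The deposited fold changes were not used here.

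Estimated counts were rounded, filtered (filterByExpr, 6 groups; 14870 genes), scaled by TMM and fitted with edgeR 4.0.16 in R 4.3.3 in 1 quasi-likelihood model with a mean per group (12 residual degrees of freedom, common biological coefficient of variation 6.90%), after the procedure was tested on simulated counts. Tests are two-sided, with Benjamini-Hochberg adjustment over all genes tested, and called at 0.05; ± after a fold change is its SE. Normalised CPM use TMM library sizes. Levels of different genes are compared in FPKM, and ratios by exact permutation. Alternatives were DESeq2 1.42.0, limma 3.58.1, upper quartile scaling, no filter, the 6 libraries alone, a replicate block, a length correction and libraries left out. Named beside the 9 genes are, per list and experiment, up to 2 called genes with the smallest p, and the 3 genes most like Tnni1 and Tnni3. Others are named because a count was 5 or fewer or to check a tissue. The members and lists were chosen with earlier results of these data known.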

Additional observations from a re-analysis of the deposited data

Results flagged for a closer look

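The effect of a sORF, measured against its own control virus, differed between experiments in 10 tests of the 9 genes. Between sORF6 and sORF7, 5 of 9 were called, against 11.2% of all genes, and between sORF6 and sORF8 0 of 9, against 3.69%. The sORF7 effect was below the sORF8 effect in 5 of 9, where 3.92% of all genes were called in that direction. A difference between sORFs cannot be told apart from one between experiments. Each value below is the difference of 2 log2 fold changes in the edgeR fit. The sORF6 effect minus the sORF7 effect was 0.267 for Tnni1 (adjusted p = 0.033), 0.215 for Tnnt2 (0.041), 0.261 for Tnnc1 (0.046), 0.209 for Tpm1 (0.0146) and -0.189 for Tpm4 (0.0114). The calls of Tnni1, Tnnt2 and Tnnc1 held in 10, 9 and 8 of 20 alternative fits, that of Tpm1 in 19 and that of Tpm4 in 18. The calls of Tnni1, Tnnt2 and Tnnc1 were lost with limma and when any 1 library was left out, except the control replicate 2 of sORF6, the control replicate 1 of sORF7 and, for Tnni1, the sORF7 replicate 2. Tnnc1 also lost its call with the replicate block (adjusted p = 0.0503). Tpm1 lost its call with limma, and Tpm4 with the length correction, with or without the block. The sORF7 effect minus the sORF8 effect was -0.429 for Tnni1 (adjusted p = 0.00201), -0.279 for Tnni3 (0.0493), -0.251 for Tnnt2 (0.0242), -0.329 for Tnnc1 (0.0173) and -0.298 for Tpm1 (0.00158). The calls of Tnni1 and Tpm1 held in 20 of 20 alternative fits, that of Tnnc1 in 17, of Tnnt2 in 13 and of Tnni3 in 9. All 3 were lost with limma and without the sORF8 replicate 3 or its control replicate 3. Tnnt2 also lost its call without the sORF7 replicate 1 or the control replicate 2 of sORF8, or the control replicate 2 or 3 of sORF7. Tnni3 lost it without any 1 library except the sORF7 replicate 2 and the control replicate 1 of sORF7.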

How the results depend on the processing

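Of 42 gene results called, tried in 680 alternative fits, 551 kept the call and 0 changed direction; of 24 not called, 44 of 360 fits called them. Counts of the 9 genes called moved most: for sORF6 (0) to 1 with limma, 3 with the length correction, 2 with the block and length correction, 3 without both libraries that stood apart, and 0 to 1 with 1 library left out. For sORF7 (1) it was 4 with DESeq2, 2 without a filter, 0 with limma, 2 with the replicate block, 6 with the length correction, 6 with block and length correction, 5 without both libraries, and 0 to 4 with 1 left out. For sORF8 (2) it was 1 with limma, 5 with the 6 libraries alone, 5 with the length correction, 4 with block and length correction, 5 without both, and 0 to 1 with 1 left out. For sORF6 against sORF7 effects (5) it was 1 with limma and 2 to 6 with 1 left out; for sORF7 against sORF8 effects (5) 3 and 2 to 5; for the sORF7 against sORF6 controls (0) 2 without both libraries. Over all genes, calls fell with the 6 libraries alone from 572 to 318 for sORF6 and from 1156 to 627 for sORF7, and rose from 558 to 815 for sORF8. For sORF8 they also rose to 930 with the length correction and to 963 without both libraries. With the length correction they were 688 for sORF6 and 1439 for sORF7. With 1 library left out they were 368 to 529, 680 to 955 and 265 to 387, and without both libraries 623 for sORF6 and 1102 for sORF7. The cause of these shifts was not tested. The 9 genes have shorter transcripts than the median tested gene (2549 bases). Values near 0 turned sign with 1 library left out: sORF7 on Tnnt1 (-0.177 to 0.152), on Tpm3 (-0.003 to 0.052) and on the Tnni1 to Tnni3 ratio (-0.04 to 0.012), and sORF8 on Tpm3 (-0.007 to 0.012). That of sORF6 on Tnni3, 0.00, ran from -0.071 to 0.094. Whether replicate numbers pair the samples is not stated in the labels and was not settled by the values. Same-numbered deviations from group means correlated by 0.0247 to 0.178, 0.00398 to 0.0835 and -0.0225 to 0.108 in the sORF6, sORF7 and sORF8 experiments. These correlations were weak, and all but that of replicate 1 of sORF8 were above 0. No experiment had every library correlating best with its own number, though most virus libraries did. With the block, Tnnt2 was called with sORF7 (adjusted p = 0.0155), and calls were lost for Lmod2 with sORF6, Prkcd and Thrb with sORF7 (adjusted p = 0.0552 and 0.102) and Tnnc1 between the sORF6 and sORF7 effects (adjusted p = 0.0503). Depth limits Tnnt1, at a mean of 5.50 CPM, whose 95% intervals were the widest.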

Other observations

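Other genes that bear on the troponins were measured in 3 lists. Over all genes, 0.968% were called higher and 2.88% lower with sORF6, 4.12% and 3.66% with sORF7, and 2.03% and 1.72% with sORF8. Of 8 genes of thyroid hormone signalling, which influences the exchange of troponin I isoforms after birth, 6 could be tested. Klf9, a thyroid hormone target, was called lower with sORF6 (log2 fold change -0.32 ± 0.07, adjusted p = 0.0108; lost without the sORF6 replicate 3), the receptor gene Thrb was called higher with sORF7 (0.38 ± 0.11, adjusted p = 0.042; lost in 9 of 15 alternative fits, among them those without the sORF7 or control replicate 2 or 3), and none was called with sORF8. Of 9 splicing factors that act on sarcomere transcripts, Celf1 (-0.20 ± 0.03, adjusted p = 7.3e-04) and Celf2 (-0.24 ± 0.05, adjusted p = 0.0024) were called lower with sORF7, and none with the other viruses. Of 13 kinases and phosphatases that act on thin filament proteins, none was called with sORF6, Prkcd, a protein kinase C, was called higher with sORF7 (0.15 ± 0.04, adjusted p = 0.0468; kept in 4 of 15 alternative fits, and lost without any 1 of the 6 libraries), and the phosphatase subunit Ppp2ca lower with sORF8 (-0.16 ± 0.04, adjusted p = 0.0201; lost without the sORF8 replicate 1 or 2 or the control replicate 2 or 3). The list medians for sORF6, sORF7 and sORF8 were 0.03, 0.11 and 0.06 for thyroid hormone signalling, 0.04, -0.04 and 0.00 for splicing factors and -0.03, -0.01 and -0.05 for kinases and phosphatases.

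Over the 18 libraries, the genes whose centred log2 CPM profile lay closest to Tnni1 among 5922 well expressed genes were Sh3bgr (root mean square difference 0.059), Tpm1 (0.061) and Spink8 (0.066), where the median gene differed by 0.336. For Tnni3 they were Actc1 (0.041), Crip2 (0.044) and Pdlim3 (0.053), with a median of 0.283. Tnni1 and Tnni3 differed from each other by 0.092. The libraries share the level differences between experiments, so these are descriptions.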
